A study of Mus musculus with 34 samples.

Results

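The 10 genes described here encode the proteins that coat lipid droplets (*Plin2*, *Plin3*, *Plin4* and *Plin5*), that break down the triglyceride inside them (*Pnpla2*, *Abhd5* and *Lipe*), that make it (*Dgat1* and *Dgat2*), and a secreted inhibitor of lipoprotein lipase (*Angptl4*). They were taken by gene symbol from the 54532 genes of the bulk RNA-seq count table, and all 10 were found. The set was chosen by its members' roles around *Plin4*, which was selected on its difference between trained and homecage mice in these same libraries, so the differences between the groups are given as a description. Whether a member met the rule for a called gene is stated only to describe it and is no test of it. The libraries came from the dorsal hippocampus of adult male C57BL/6J mice aged 2 to 3 months, 4 of them kept in the homecage and 4 trained in spatial object recognition (SOR), a task in which mice learn the places of objects in an arena, and euthanized 1 h after training. Each library was 1 mouse, and all mice were housed singly and handled before the experiment. The question was which transcripts of lipid droplet turnover differ between the hippocampus of trained and homecage mice.

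Lipid droplets are stores of triglyceride and sterol esters enclosed by a phospholipid monolayer, and perilipins are the proteins that cover this surface and control the access of lipases to the core. Fatty acids enter the store through the DGAT enzymes and leave it through adipose triglyceride lipase, the product of *Pnpla2*, with ABHD5 as its coactivator and hormone-sensitive lipase, the product of *Lipe*, acting on the diglyceride that remains. In the brain, droplets are known mainly from glia and ependymal cells, and several perilipin genes are known targets of PPAR nuclear receptors.

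*Plin3*, *Plin4* and *Plin5* lie on chromosome 17 of GRCm38, all on the minus strand, within 192.283 kb. The 300-base windows around their RefSeq starts (250 bases before and 50 after, GRCm38.p6, minus strand) are shown because these are the coat genes of 1 cluster, with *Plin4* among them, and the capitals mark TATAA. They are chr17:56109733-56110032 for *Plin4*, chr17:56117499-56117798 for *Plin5* and chr17:56290462-56290761 for *Plin3*. A further RefSeq window of *Plin5*, chr17:56117249-56117548, held no TATAA and is not shown.
Plin4: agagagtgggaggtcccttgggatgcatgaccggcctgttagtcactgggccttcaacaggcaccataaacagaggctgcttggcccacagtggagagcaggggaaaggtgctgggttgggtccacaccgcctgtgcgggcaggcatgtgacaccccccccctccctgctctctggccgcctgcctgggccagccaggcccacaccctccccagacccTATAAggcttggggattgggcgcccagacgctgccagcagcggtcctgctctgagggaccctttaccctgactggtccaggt
Plin5: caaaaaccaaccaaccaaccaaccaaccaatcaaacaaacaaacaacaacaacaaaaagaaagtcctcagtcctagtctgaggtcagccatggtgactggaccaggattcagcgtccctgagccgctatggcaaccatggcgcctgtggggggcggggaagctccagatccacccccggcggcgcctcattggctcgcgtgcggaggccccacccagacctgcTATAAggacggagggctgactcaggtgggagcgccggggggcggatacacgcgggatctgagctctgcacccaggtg
Plin3: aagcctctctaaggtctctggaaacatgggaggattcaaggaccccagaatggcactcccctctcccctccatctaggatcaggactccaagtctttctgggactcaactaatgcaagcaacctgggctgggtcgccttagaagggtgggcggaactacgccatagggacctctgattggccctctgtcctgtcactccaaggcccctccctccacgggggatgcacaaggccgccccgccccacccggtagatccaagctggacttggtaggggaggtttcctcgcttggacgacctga

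The *Plin4* window held TATAA 32 bases before the RefSeq start, and the *Plin5* window shown held it 27 bases before the RefSeq start. In each case it lay within the longer run CTATAAGG. The GENCODE gene positions given below differ, with minus-strand starts at 56109803 for *Plin4*, 56117596 for *Plin5* and 56292873 for *Plin3*. By these, the *Plin5* TATAA and the whole *Plin3* window lie inside the gene, so the distances hold for the RefSeq starts only. The longer run was picked after the windows had been read, and it occurred on either strand in 0.417% of the 32851 windows of this length, against 24.9% for TATAA. The other short motifs searched on both strands were AGAACA, which steroid receptors bind as a half-site (19.0% of all windows), AGGTCA, a half-site of PPAR and related receptors (16.3%), TGACG of CREB sites (20.8%), CACGTG (7.15%), TGANTCA of AP-1 (7.81%) and GCGTGGG of EGR factors (5.04%). None of these 6 was present in the *Plin4* window or the *Plin3* window, while the *Plin5* window shown held AGGTCA and TGANTCA. The further *Plin5* window held AGGTCA. RefSeq windows were found for 7 of the 10 genes, with no entry for *Dgat1*, *Dgat2* and *Angptl4*.

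Total counts per library lay between 51406011 and 81525977. Levels are given as CPM, counts divided by the library size after scaling by upper-quartile factors, in the usual unit of library depth, and 22018 genes with enough counts were tested with edgeR's quasi-likelihood F test. A called gene had a Benjamini-Hochberg adjusted p under 0.05, taken over all genes tested, and a fold change above 1.4. All 10 genes passed the filter on low counts, with between 31.5 counts for *Plin5* and 4039 counts for *Dgat2* in single libraries. Markers of hippocampal excitatory neurons, such as *Slc17a7*, *Prox1* and *Fibcd1*, were present in every library (summed over 8 genes, 2100 to 2562 CPM). Markers of the choroid plexus, the epithelium that secretes cerebrospinal fluid, differed widely between libraries, from 25.2 to 1094 CPM in the homecage group and from 41.4 to 4002 CPM in the SOR group (sum of 6 genes). SOR replicate 1 held the highest of these sums, so values without this library are given where they matter.

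*Plin4* (ENSMUSG00000002831, chromosome 17 from 56100591 to 56109803) encodes the perilipin with the longest run of repeated amphipathic segments and is known best from adipose tissue. It was detected in all 8 mice. The homecage libraries held 3.63, 4.197, 4.23 and 3.60 CPM of *Plin4* in replicates 1 to 4. The SOR libraries held 15.2, 11.98, 9.38 and 10.9 CPM. Every SOR mouse was thus above every homecage mouse, and the lowest SOR value was 2.22 times the highest homecage value. Homecage libraries averaged 3.92 ± 0.344 CPM (SD, n = 4) and SOR libraries 11.9 ± 2.48 CPM (SD, n = 4). The fitted log2 fold change was 1.60, with a standard error of 0.146 and a 95% interval from 1.28 to 1.93, which is 3.04-fold. By log2 fold change it ranked 22 among the genes tested. As these are values of tissue, more RNA per cell and more cells of a type that holds it cannot be told apart.

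*Plin4* was the only one of the 10 genes that was called, and it was called higher. Over all genes tested, 38 were called (0.173%), 33 of them higher in SOR-trained mice (0.150%) and 5 lower (0.0227%), but since *Plin4* was chosen with this difference known, nothing is read from the count. Full separation of the groups was likewise found for *Plin4* alone among the 10, against 6.94% of all genes, 2.98% with every SOR value higher and 3.96% with every SOR value lower. The median log2 fold change of the 10 genes was -0.05, and that of all genes tested was -0.02.

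**Figure D1:**
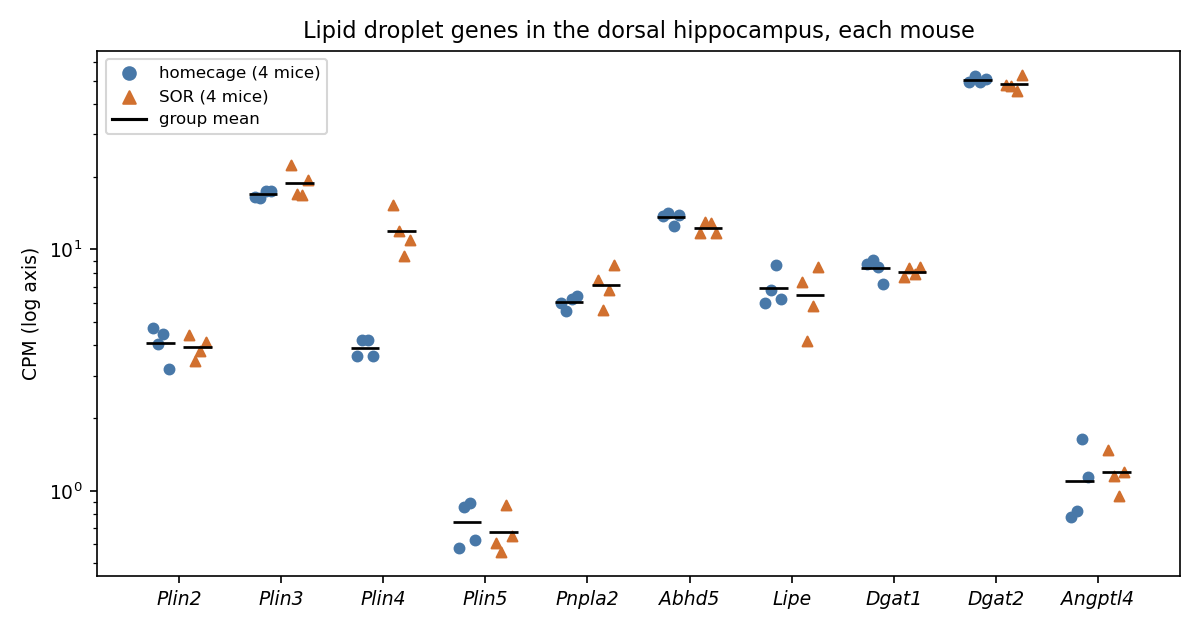
CPM of the 10 lipid droplet genes on a log axis, with 1 point per mouse (circles for homecage, triangles for SOR) and bars at the group means. The SOR points of *Plin4* lie between 9.38 and 15.2 CPM, all above the homecage points between 3.60 and 4.23 CPM, while the groups overlap for the other 9 genes.

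*Plin4* was lowest in SOR replicate 3 and highest in SOR replicate 1, the library with the most choroid plexus RNA. Without SOR replicate 1 its log2 fold change was 1.46. In SOR replicates 1 to 4 the choroid plexus markers summed to 4002, 881, 794 and 41.4 CPM, beside 15.2, 11.98, 9.38 and 10.9 CPM of *Plin4*. In homecage replicates 1 to 4 these markers summed to 1094, 25.2, 65.5 and 882 CPM, beside 3.63, 4.197, 4.23 and 3.60 CPM of *Plin4*. Markers of fat, the tissue in which *Plin4* is best known, were near 0. The 6 adipocyte markers summed to 0.337 to 0.625 CPM in homecage and 0.295 to 0.491 CPM in SOR libraries, *Cfd* had no count in any library, and *Adipoq* had none in the homecage libraries and averaged 0.0112 CPM in the SOR libraries. Skeletal muscle markers summed to 4.32 to 5.53 CPM in homecage and 3.66 to 4.28 CPM in SOR libraries, where every sum was lower. Of these 5 markers 3 were tested, 2 of them with positive log2 fold changes (median 0.07, lowest -0.47). The sums of red blood cell markers overlapped between the groups (98.6 to 127 against 115 to 184 CPM), and so did those of astrocytes (3853 to 4016 against 3730 to 4128 CPM), microglia (288 to 330 against 281 to 316 CPM), endothelial cells (129 to 156 against 141 to 144 CPM), mural cells (153 to 187 against 168 to 179 CPM) and meningeal fibroblasts (18.6 to 47.4 against 36.6 to 89.0 CPM). The sums of oligodendrocyte markers overlapped as well (5308 to 5787 against 4338 to 5697 CPM), but all 7 of these markers had negative log2 fold changes, with a median of -0.19. Of these, 3 had an unadjusted p under 0.05 (10.1% of all genes did), 0 were called, and the values of *Opalin* (log2 fold change -0.50, adjusted p = 0.16 in edgeR's quasi-likelihood test) were lower in every SOR library than in every homecage library. All 6 choroid plexus markers had positive log2 fold changes (median 1.37, lowest adjusted p 0.61 in edgeR's quasi-likelihood test). So had all 5 markers of red blood cells (median 0.37) and all 5 of meningeal fibroblasts (median 0.24). Among all genes tested, 43.8% were higher in SOR-trained mice. Of 7 markers each, 4 were positive for astrocytes, endothelial cells and mural cells, and 2 for microglia. The part of these cell types, the choroid plexus included, in the *Plin4* difference was not tested.

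The other coat genes were not called, and their groups overlapped. *Plin3* (ENSMUSG00000024197, chromosome 17 from 56277476 to 56292873), whose product moves between cytosol and young droplets in most cell types, had 16.4, 16.3, 17.5 and 17.5 CPM in homecage replicates 1 to 4. In SOR mice *Plin3* had 22.4, 16.9, 16.8 and 19.5 CPM. The SOR values of replicates 1 and 4 were above the homecage range, and those of replicates 2 and 3 lay inside it. The log2 fold change of *Plin3* was 0.16 (95% interval -0.05 to 0.37), and 0.06 without SOR replicate 1.

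*Plin2* (ENSMUSG00000028494, chromosome 4 from 86648386 to 86670060) encodes the coat protein that is widely used as a marker of droplet content because it is degraded when not bound to lipid. It had 4.74, 4.06, 4.46 and 3.20 CPM in homecage and 4.44, 3.46, 3.79 and 4.12 CPM in SOR-trained mice. All SOR values of *Plin2* lay within the homecage range. Its log2 fold change was -0.05 (95% interval -0.37 to 0.26), and the sign changed when homecage replicate 1 or SOR replicate 2 was left out.

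*Plin5* (ENSMUSG00000011305, chromosome 17 from 56111601 to 56117596), known from oxidative tissues where it tethers droplets to mitochondria, is the perilipin gene nearest to *Plin4*. Only 1797 bases lie between these genes. *Plin5* was sparse, with 0.581, 0.856, 0.892 and 0.628 CPM in homecage and 0.605, 0.558, 0.875 and 0.648 CPM in SOR-trained mice. The groups overlapped, with a log2 fold change of -0.14 (95% interval -0.63 to 0.36), which was -0.036 without homecage replicate 3 and -0.29 without SOR replicate 3. The counting error of a single library was 14.8% of the *Plin5* level in homecage and 16.003% in SOR-trained mice.

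Per kb of exon, *Plin3* was the main perilipin transcript in each library, and the place of *Plin4* changed. *Plin4* made up 9.54 to 11.01% of the summed CPM per kb of the 4 coat genes in homecage mice (mean 10.1 ± 0.689%, SD, n = 4) and 21.5 to 26.6% in SOR-trained mice (24.1 ± 2.63%, SD, n = 4). *Plin3* made up 67.0 ± 3.05% in homecage and 58.7 ± 1.26% in SOR-trained mice, and *Plin2* 17.5 ± 2.63% and 13.3 ± 0.877% (SD, n = 4 per group). Shares of a whole move against each other, so the lower shares of *Plin2* and *Plin3* do not by themselves mean lower levels. The shares also depend on the gene length used. With the longest transcript, chosen after seeing the data, *Plin2* made up 27.6 ± 3.66% and 21.7 ± 1.27% (SD, n = 4 per group), and *Plin4* 7.95 to 9.37% in homecage and 18.8 to 23.6% in SOR libraries. The sum without *Plin4* was 6.00 ± 0.218 CPM per kb in homecage and 6.44 ± 0.792 CPM per kb in SOR-trained mice, and the sum with it 6.68 ± 0.255 and 8.50 ± 1.15 CPM per kb (SD, n = 4 per group).

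**Figure D2:**
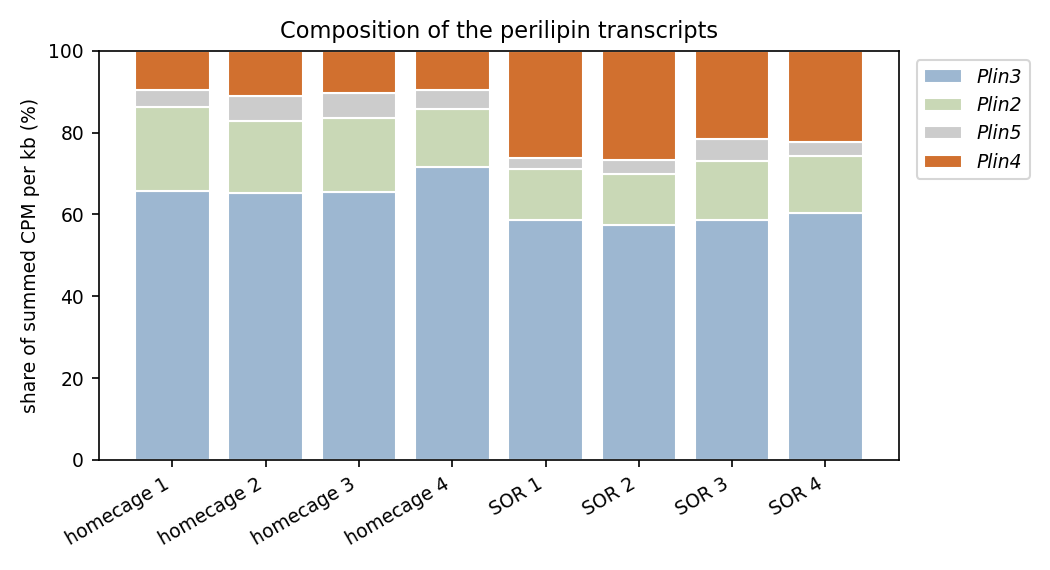
Share of each perilipin gene in the summed CPM per kb of *Plin2*, *Plin3*, *Plin4* and *Plin5*, in percent, with 1 bar per mouse. The *Plin4* share is at most 11.01% in the 4 homecage bars and at least 21.5% in the 4 SOR bars, and *Plin3* is the largest part of every bar.

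The genes of lipolysis were not called. *Pnpla2* (ENSMUSG00000025509, chromosome 7 from 141455198 to 141460743), which encodes the lipase of the initial step, had 6.01, 5.56, 6.21 and 6.39 CPM in homecage and 7.50, 5.64, 6.80 and 8.62 CPM in SOR-trained mice. SOR replicates 1, 3 and 4 were above the homecage range and replicate 2 was inside it. The log2 fold change was 0.24, or 0.14 without SOR replicate 4, and its 95% interval of -0.04 to 0.52 includes no difference as well as a fold change above 1.4. *Abhd5* (ENSMUSG00000032540, chromosome 9 from 122351608 to 122381524), the coactivator of this lipase, ranged from 12.6 to 14.2 CPM in homecage and from 11.7 to 13.02 CPM in SOR-trained mice. SOR replicates 1 and 4 were below all homecage values of *Abhd5*, and its log2 fold change was -0.14 (95% interval -0.30 to 0.02). *Lipe* (ENSMUSG00000003123, chromosome 7 from 25379527 to 25398710) was more variable, with 5.98 to 8.66 CPM in homecage and 4.16 to 8.45 CPM in SOR-trained mice. Its log2 fold change was -0.10 (95% interval -0.55 to 0.35) and turned positive without homecage replicate 3 or SOR replicate 2. *Lipe* overlaps the antisense gene *4732471J01Rik* (2.85 CPM in homecage and 2.84 CPM in SOR-trained mice), and *Abhd5* overlaps *A730085K08Rik* (0.375 and 0.397 CPM). Whether the counting used strand is not stated, so reads of these pairs may not be fully separated.

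The triglyceride synthesis genes had the narrowest intervals of the set together with *Abhd5*. *Dgat2* (ENSMUSG00000030747, chromosome 7 from 99153658 to 99182719) ranged from 49.3 to 52.3 CPM in homecage and from 45.5 to 53.0 CPM in SOR-trained mice. Its values overlapped and its log2 fold change was -0.06 (95% interval -0.17 to 0.06) and lay between -0.10 and -0.025 when 1 library was left out. *Dgat1* (ENSMUSG00000022555, chromosome 15 from 76502015 to 76511953), the isoenzyme that works in the endoplasmic reticulum, ranged from 7.20 to 9.05 CPM in homecage and from 7.69 to 8.43 CPM in SOR-trained mice. All SOR values of *Dgat1* were inside the homecage range, with a log2 fold change of -0.05 (95% interval -0.25 to 0.16) that lay between -0.11 and -0.0037 when 1 library was left out.

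*Angptl4* (ENSMUSG00000002289, chromosome 17 from 33773750 to 33781830) encodes the secreted inhibitor of lipoprotein lipase and is known as a target of PPAR and of the glucocorticoid receptor. It had 0.781, 0.828, 1.64 and 1.14 CPM in homecage and 1.48, 1.15, 0.952 and 1.20 CPM in SOR-trained mice. All SOR values of *Angptl4* lay inside the homecage range. Its log2 fold change of 0.13 had the widest interval of the set (95% interval -0.42 to 0.68), and leaving out 1 library gave values from 0.002 without homecage replicate 1 to 0.38 without homecage replicate 3. The spread of *Angptl4* between homecage mice, 36.1% of the mean, was larger than the counting error of 12.4%.

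Of the 9 genes that were not called, 5 had a 95% interval that lay wholly within a fold change of 1.4 in either direction, namely *Plin2*, *Plin3*, *Abhd5*, *Dgat1* and *Dgat2*. The intervals of *Plin5*, *Pnpla2*, *Lipe* and *Angptl4* reached beyond it. For these 4 genes the data leave room for a difference of that size.

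**Figure D3:**
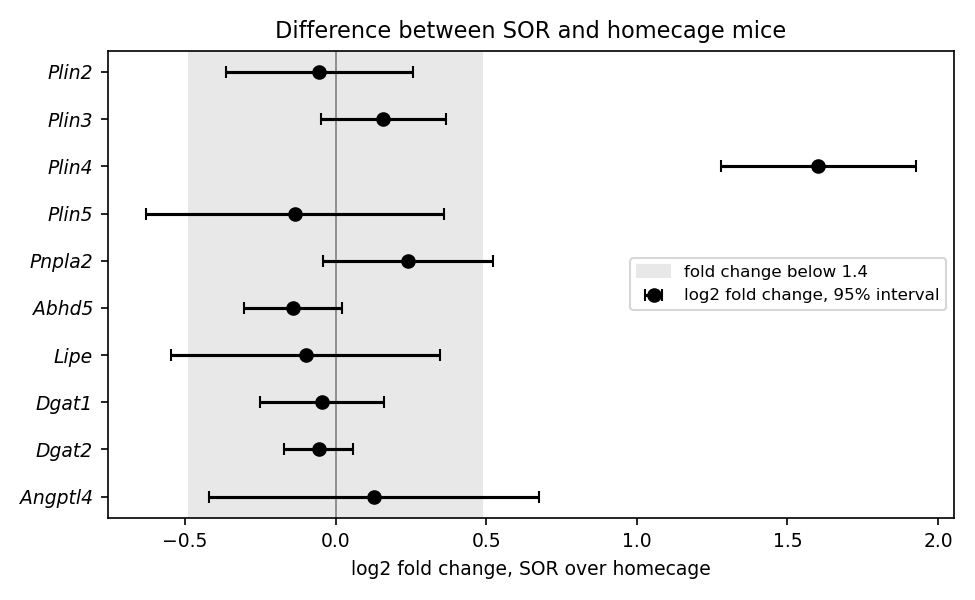
Log2 fold change of SOR over homecage mice for the 10 genes, with bars for the 95% interval from the quasi-likelihood fit and a grey band for fold changes below 1.4. *Plin4* stands at 1.60 and the other 9 genes lie between -0.14 and 0.24.

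The levels in homecage mice, which for *Plin4* are part of the difference it was selected on and are given as a description, ranged over more than an order of magnitude. Per kb of exon, *Dgat2* was the most abundant at 16.4 ± 0.441 CPM per kb (SD, n = 4), followed by *Plin3* at 4.47 ± 0.175 and *Dgat1* at 2.74 ± 0.265 CPM per kb. *Abhd5* (2.28 ± 0.119 CPM per kb) and *Pnpla2* (2.00 ± 0.118 CPM per kb) came next, then *Lipe* (1.17 ± 0.206) and *Plin2* (1.17 ± 0.191). *Plin4* was 8th at 0.678 ± 0.0596 CPM per kb, ahead of *Plin5* (0.354 ± 0.0755) and *Angptl4* (0.310 ± 0.112). The homecage ranges of neighbours in this order overlapped for *Dgat1* and *Abhd5*, *Abhd5* and *Pnpla2*, *Lipe* and *Plin2*, and *Plin5* and *Angptl4*. Divided by the longest transcript instead, *Plin2* (2.18 CPM per kb) came before *Lipe* (1.86 CPM per kb), and *Abhd5* (4.31) and *Dgat1* (4.43) moved by more than 1.5 times to just under *Plin3* (4.65 CPM per kb). In SOR mice *Plin4* was 6th at 2.06 ± 0.430 CPM per kb (SD, n = 4). Between homecage mice, *Dgat2* varied by 2.69% and *Plin3* by 3.91% of the mean, the smallest spreads of the 10 genes, and *Plin4* by 8.80%, with a counting error of 6.33%. In SOR mice the spread of *Plin4* was 20.9%, with a counting error of 3.82%.

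The neighbourhood of *Plin4* was read for the values of adjacent genes. Besides *Plin4*, 14 protein-coding genes were tested from *Chaf1a* to *Kdm4b*, the outer of the 2 nearest tested genes on each side of the perilipin cluster, and 0 were called, against 0.173% of all genes (lowest adjusted p 0.43 in edgeR's quasi-likelihood test). Their log2 fold changes lay between -0.31 for *Chaf1a* and 0.23 for *Uhrf1*. *Hdgfl2*, on the plus strand, shares 17 bases with the 3′ end of *Plin4*, out of 5777 exonic bases of *Plin4*. It is the more abundant of this pair, with 56.9 to 64.6 CPM in homecage and 57.9 to 61.0 CPM in SOR-trained mice and a log2 fold change of -0.03. *Ubxn6*, on the left of *Hdgfl2*, had a log2 fold change of -0.02, and *Sema6b*, between *Plin5* and *Plin3*, one of -0.07. *Fem1a*, with a log2 fold change of -0.11 (adjusted p = 0.43), was 1 of the 14 whose groups did not overlap, as 6.94% of all genes tested did not.

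**Figure D4:**
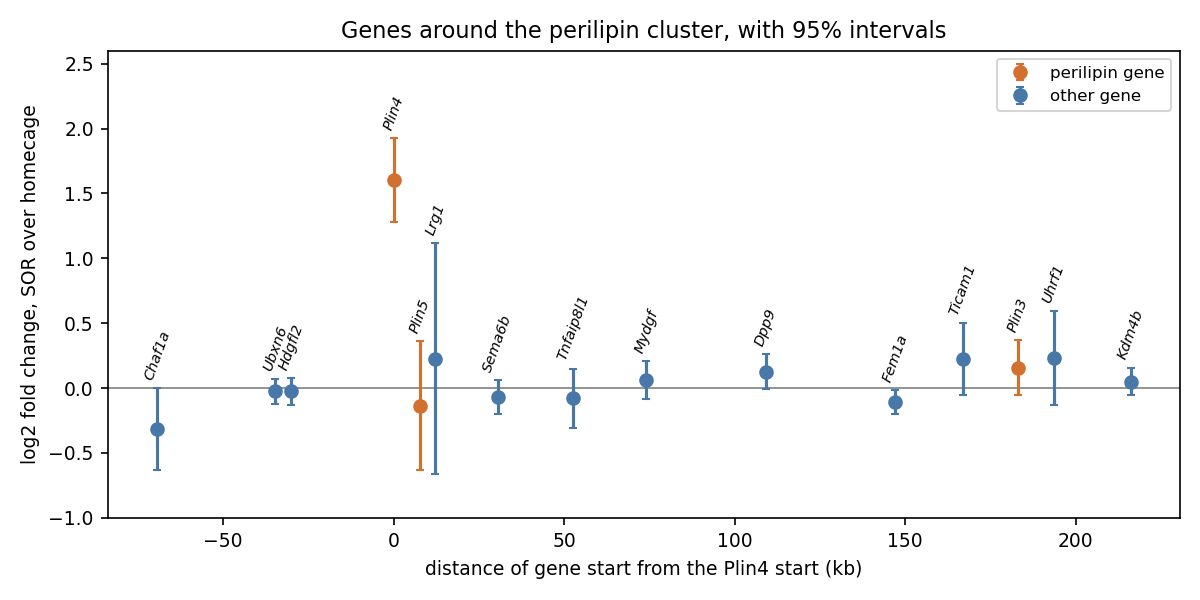
Log2 fold change of SOR over homecage mice for the 15 tested protein-coding genes around the perilipin cluster, plotted at the distance of each gene start from the *Plin4* start in kb, with bars for 95% intervals. *Plin4* is at 1.60, and the other 14 genes, *Plin5* and *Plin3* included, lie between -0.31 and 0.23.

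The wider pathway was read from 5 lists with 96 genes, of which 86 were tested. By edgeR's quasi-likelihood test 0 of these were called, against 0.173% of all genes tested, so nothing is read from this count. With the same fold-change threshold, 0 were called by DESeq2, limma-voom or the likelihood ratio test. Every SOR value was higher than every homecage value for 4 of the 86 genes and lower for 5, against 2.98% and 3.96% of all genes. At an unadjusted p under 0.05 there were 16 (18.6%), against 10.1% of all genes tested. Values were higher in SOR-trained mice for 46 and lower for 40 of the 86 genes, with a median log2 fold change of 0.01. Of all genes tested, 43.8% were higher. For 65 of them the 95% interval lay within a fold change of 1.4 either way. The genes not tested because of low counts were *Cidec*, *Fitm1*, *Hsd17b13*, *Fabp4*, *Mogat1*, *Mogat2*, *Gpihbp1*, *Angptl8*, *Apoc2* and *Apoc3*.

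Among 13 tested genes of droplet coat and biogenesis, 6 had positive log2 fold changes and the median was 0.00. *Plin1*, the perilipin of adipocytes, stood at 0.303 ± 0.0773 CPM in homecage libraries and 0.253 ± 0.0897 CPM in SOR libraries (SD, n = 4 each), with a log2 fold change of -0.25 that was -0.052 without homecage replicate 4 and -0.48 without SOR replicate 3. *Ldah*, which encodes a droplet-associated hydrolase, had 29.0 ± 2.06 and 33.6 ± 3.32 CPM and a log2 fold change of 0.21 (adjusted p = 0.41 in edgeR's quasi-likelihood test). Neither was called, and the groups overlapped for both.

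Among 12 tested genes of intracellular lipolysis and fatty acid binding, 4 had positive log2 fold changes, with a median of -0.06. *Fabp7*, the fatty acid binding protein of astrocytes and neural precursors, ranged from 15.1 to 17.6 CPM in homecage and from 11.8 to 14.7 CPM in SOR-trained mice. These groups did not overlap, but *Fabp7* was not called (log2 fold change -0.29, adjusted p = 0.26 in edgeR's quasi-likelihood test). It was 1 of 3 genes of this list with every SOR value lower, *Fabp5* (adjusted p = 0.16 in the same test) among them. A further 2 had every SOR value higher. Over all genes tested these shares were 3.96% and 2.98%. *Ces1d*, a carboxylesterase of a multigene family whose reads may be shared among copies, had a log2 fold change of 0.73 that rested on SOR replicate 2 with 2.22 CPM, against 0.196 to 0.309 CPM in the other SOR mice. Without that library its log2 fold change was -0.85.

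Among 21 tested genes of glycerolipid synthesis, 12 had positive log2 fold changes, with a median of 0.00. The largest were those of *Agpat2* (0.36, adjusted p = 0.70) and *Lpin3* (-0.19, adjusted p = 0.88), both near 1 CPM with overlapping groups. *Agpat2* was at 0.16 without SOR replicate 1 and at 0.59 without homecage replicate 4, and *Lpin3* at 0.094 without homecage replicate 4 and at -0.38 without homecage replicate 1. Among 14 tested genes of extracellular lipolysis and lipid uptake, 5 had positive log2 fold changes, with a median of -0.03. The fatty acid transporter gene *Cd36* had 0.763 ± 0.234 CPM in homecage libraries and 0.548 ± 0.150 CPM in SOR libraries (SD, n = 4 each), with overlapping groups and a log2 fold change of -0.48 (adjusted p = 0.61 in edgeR's quasi-likelihood test), or -0.32 without homecage replicate 3.

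Among the 26 genes of PPAR receptors and fatty acid oxidation, 19 had positive log2 fold changes, with a median of 0.07. An unadjusted p under 0.05 in edgeR's quasi-likelihood test was found for 6 of the 26, against 10.1% of all genes tested. *Ucp2*, a mitochondrial carrier, had 3.47 to 4.98 CPM in homecage mice, 4.48 to 4.71 CPM in SOR replicates 2 to 4 and 19.3 CPM in SOR replicate 1. Its log2 fold change was 0.94 (adjusted p = 0.52) with that library, the one richest in choroid plexus RNA, and 0.07 without it. *Ucp3* was 1.83 ± 0.159 CPM in homecage and 1.35 ± 0.370 CPM in SOR-trained mice (log2 fold change -0.45, adjusted p = 0.47). *Pdk4*, a PPAR and glucocorticoid target that restrains pyruvate oxidation, is named because its adjusted p of 0.10 was the lowest of the 86, a choice made with the values in view. Its SOR values (8.45 to 9.23 CPM) all lay above its homecage values (5.83 to 7.39 CPM), and its log2 fold change was 0.45.

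Since *Angptl4* is a known glucocorticoid target, 18 other genes known to respond to glucocorticoids were read beside the set. Of these, 17 had positive log2 fold changes (43.8% of all genes tested did), with a median of 0.43 against -0.02 for all genes tested. SOR values lay above all homecage values for 13 (2.98% of all genes), and 4 were called higher (0.150% of all genes were) and 0 lower. This list was chosen with earlier results of these libraries known and is not independent evidence of a direction. The kinase gene *Sgk1* rose from 54.6 ± 6.67 to 139 ± 16.5 CPM (log2 fold change 1.35, adjusted p = 3.78e-04), *Tsc22d3*, which encodes the leucine zipper protein GILZ, from 42.2 ± 1.52 to 65.6 ± 7.87 CPM (0.63, adjusted p = 0.0055), the NF-κB inhibitor gene *Nfkbia* from 11 ± 0.460 to 19.1 ± 1.90 CPM (0.80, adjusted p = 0.0024) and the EGFR inhibitor gene *Errfi1* from 40.4 ± 0.679 to 59.4 ± 5.72 CPM (0.56, adjusted p = 0.0048, all SD, n = 4 per group, edgeR's quasi-likelihood test). *Fkbp5*, picked with its value in view, was the exception with a log2 fold change of -0.03. The log2 fold change of *Plin4*, 1.60, was above that of each called gene of this list, whereas that of *Angptl4*, 0.13, was below each called gene. *Hif3a* had a larger log2 fold change than *Plin4* (1.87, adjusted p = 0.078 in edgeR's quasi-likelihood test, not called). In 5 of 11 alternative fits with all samples *Hif3a* was called, and the paper names it among the genes found by its bulk RNA-seq.

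**Figure D5:**
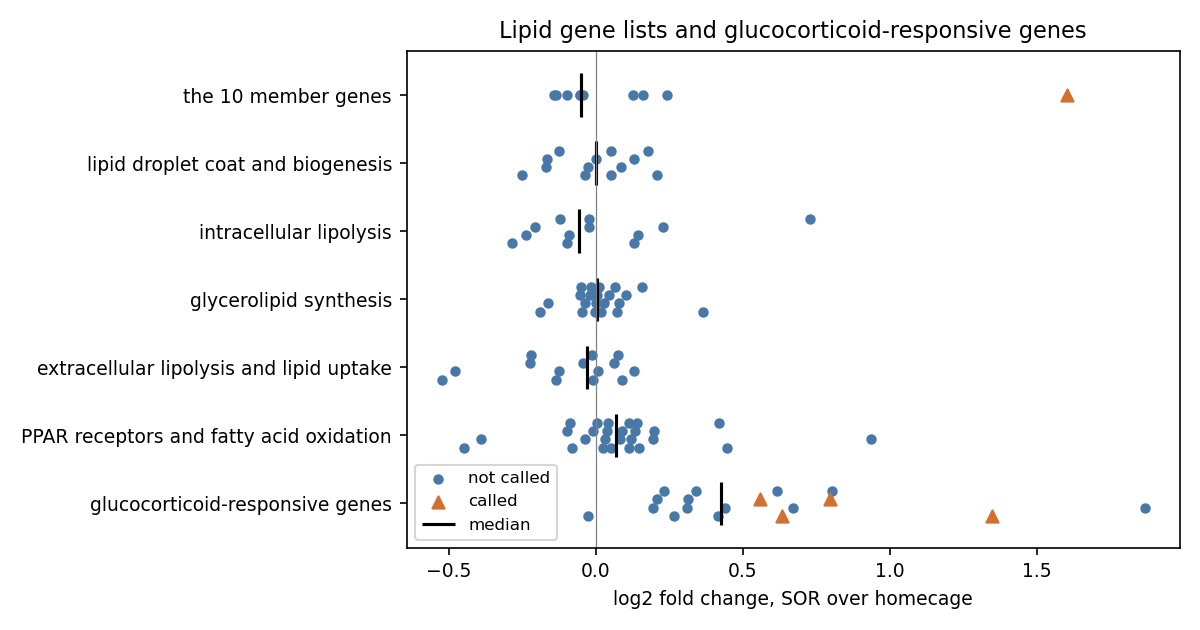
Log2 fold change of SOR over homecage mice for the 10 member genes, the tested genes of 5 lipid lists and 18 glucocorticoid-responsive genes, with 1 point per gene, triangles for called genes and a vertical bar at the median of each row. No gene of the 5 lipid lists is called, 4 of the glucocorticoid-responsive genes are, and *Plin4* at 1.60 is the only triangle among the 10 members.

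Over the 8 libraries, the tested genes of at least 1 CPM whose log2 CPM followed *Plin4* most closely were *Arhgap22* (Pearson r 0.99, log2 fold change 0.18), *Kdm7a* (r 0.99, 0.38), *9530059O14Rik* (r 0.98, 0.32) and *Ccdc117* (r 0.98, 0.71). These values mostly restate that the 2 groups are apart, with 4 libraries in each. After the group means were removed, the closest genes were *Rfx2*, *BC031181*, *Adh5* and *Thsd4* (r 0.98 to 0.99 over 8 libraries), with log2 fold changes between -0.18 and 0.12, so the genes nearest to *Plin4* within the groups were not those nearest across them. Among the members, *Plin3* came closest to *Plin4* within the groups (r 0.71). For *Angptl4*, the closest gene was *Casp6* (r 0.97), followed by *Slc31a2*, *Tex13c2* and *Nfkbiz* (r 0.93 to 0.95). Within the groups *Dusp18*, *Fuom*, *Cdc42se1* and *Casp6* were closest to it (r 0.97 to 0.99). With 16351 genes compared over 8 libraries, high values of r arise for many genes, and they are given only as a description.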

How the data were processed

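Bulk RNA-seq was measured in 8 of the 34 samples of the series, 4 homecage and 4 SOR mice. Spatial, single-nucleus and ATAC samples were not analysed here. The labels name polyA RNA, while their protocol and the paper name ribosomal RNA depletion. The authors aligned reads to mm10 with STAR within bcbio-nextgen, named featureCounts for counting, and deposited estimated counts per gene summarised by tximport and not normalized, of which 52.6% are not whole. After rounding, filterByExpr left 22018 genes, which were scaled by upper-quartile factors in edgeR 4.0.16 (R 4.3.3, limma 3.58.1, DESeq2 1.42.0). Standard errors were derived from the F statistic, and 95% intervals from the t distribution on the fitted degrees of freedom. Positions and union exon lengths came from GENCODE M21, promoter windows from RefSeq. CPM per kb divides CPM by that length, and correlations used log2(CPM + 0.5).

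The members and gene lists were chosen with earlier results of these data known. Other genes were named if called in a list (otherwise the 2 with the largest absolute log2 fold change in it), next to the perilipin cluster, or among the 4 closest to *Plin4* or *Angptl4*. A gene that this rule names is not reported here. Replicates are separate mice, and differed by more than counting error (chi-square per degree of freedom 11.1 to 49.2). The study also used RUVs factors, whose number is not given, so fits with 1 and 2 factors were alternatives, beside TMM, RLE and library size scaling, 2 other filters, DESeq2, the likelihood ratio test, limma-voom, the replicate number as a block, no fold-change threshold and each sample left out. Counting errors given here cover counting only.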

Additional observations from a re-analysis of the deposited data

Results flagged for a closer look

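In 68 named or non-overlapping genes, 136 groups of 4 mice were searched for a sample that stood far from the other 3, which chance finds in about 1 in 20 groups. This gave 7 samples, and none of them concerned the 10 members. *Ucp2* had 19.3 CPM in SOR replicate 1, *Lipa*, the lysosomal acid lipase gene, had 30.1 CPM in SOR replicate 1, and *Ces1d* had 2.22 CPM in SOR replicate 2. The part of the choroid plexus RNA in SOR replicate 1 in the first 2 of these values was not tested. *Lpin2* was low in SOR replicate 2 with 81.6 CPM, as was *Ubxn6* with 53.8 CPM. In the homecage group, *Fabp5* was low in replicate 1 with 58.0 CPM and *Cables1* high in replicate 3 with 9.80 CPM.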

How the results depend on the processing

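As a description of *Plin4*, it was called in all 11 alternatives with all samples, with log2 fold changes from 1.55 to 1.63, and in all 8 fits without 1 sample, from 1.46 to 1.70. No other member was called in any of them, so 1 member was called throughout. Of 190 log2 fold changes recomputed for the members, 186 kept their direction and side of the threshold. Over the fits without 1 sample *Plin2* ran from -0.16 to 0.022 and *Lipe* from -0.26 to 0.061. The sign changed for *Plin2* without homecage replicate 1 (0.022) and without SOR replicate 2 (0.0037), and for *Lipe* without homecage replicate 3 (0.027) and without SOR replicate 2 (0.061).

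Over all genes, 38 calls became 112 with DESeq2 (84 higher, 28 lower), 105 with the likelihood ratio test (69 and 36), 134 and 191 with 1 and 2 RUVs factors (83 and 51, 104 and 87), and 68 without a fold-change threshold (60 and 8), and 22 to 38 over the fits without 1 sample, with 22 without homecage replicate 2 and 25 without homecage replicate 4. The glucocorticoid list went from 4 calls to 8 with DESeq2, 7 with the likelihood ratio test and 8 with 1 or 2 RUVs factors. The lipid lists had 0 calls in every alternative with the fold-change threshold. Without it, a choice made after seeing the data, they had 3 with DESeq2 (*Lpin2*, *Pdk4*, *Slc27a1*), 2 with the likelihood ratio test (*Pdk4*, *Slc27a1*), 3 with 1 RUVs factor (*Fabp5*, *Pdk4*, *Slc27a1*) and 4 with 2 RUVs factors (*Ucp2* besides). The cause was not tested.

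The replicate numbers showed no pairing, as libraries of equal number deviated together no more than others. The correlation of their deviations ran from -0.099 to 0.15 for equal numbers and from -0.31 to 0.23 for the others. With so few libraries these values cannot exclude a pairing by number. With the replicate number as a block, 30 genes were called, 1 member among them, 5 genes of the glucocorticoid list and 0 of the lipid lists.

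With the longest transcript in place of the union of exons, homecage levels became 2.18 CPM per kb for *Plin2*, 2.30 for *Pnpla2*, 4.31 for *Abhd5*, 1.86 for *Lipe*, 4.43 for *Dgat1* and 22.3 for *Dgat2*, since the length divided by is shorter. *Plin2* then ranked above *Lipe*. The scaling left the levels within 1 SD.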
